A study of Rattus norvegicus with 24 samples.

Results

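The response to desisobutyryl ciclesonide was compared between lung and liver of neonatal rats, as the change from vehicle in lung less the change from vehicle in liver. The 16 libraries of this contrast were taken by tissue and treatment from the 24 libraries of the series, and 12828 of 30560 Ensembl gene identifiers entered it, those expressed in both tissues. All animals were wild-type Sprague Dawley pups with postnatal day 6 tissue, taken 24 hours after the last of 5 once-daily injections under the skin that began on postnatal day 1. Pups received vehicle (2.5% ethanol) or desisobutyryl ciclesonide at 1.25 mg/kg, with 4 lung and 4 liver libraries each. The labels give neither litter nor sex, and nothing says that replicates came from separate litters, so p-values measure no more than the variation among the libraries themselves. The remaining 8 libraries, from pups given dexamethasone at 0.1 mg/kg, are used here only beside a result or to set gene levels from libraries outside the contrast.

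Ciclesonide is an inhaled glucocorticoid prodrug that esterases in tissue convert to desisobutyryl ciclesonide, which binds the glucocorticoid receptor. The receptor sits in the cytoplasm with chaperones, moves to the nucleus on binding a steroid, and raises or lowers transcription of genes that differ from one cell type to another, since much of the chromatin it can reach is already open in that cell type. In the lung of newborns glucocorticoids are known for their effects on surfactant and on the growth of alveoli, and in liver for gluconeogenesis and the breakdown of amino acids. The contrast therefore asks which genes answered one steroid differently in the 2 organs of pups treated alike. The files carry no gene names and the name table at hand matched none of the identifiers, so genes are given by identifier and their functions are not stated.

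Counts assigned to genes ran from 15839958 to 23195805 per lung library and from 16724129 to 26194384 per liver library. The tissue labels could be checked only through 20 liver-abundant and 20 lung-abundant genes chosen from dexamethasone libraries. The liver-abundant genes summed to between 236977 and 272072 CPM (counts scaled to the total of each library) in the 8 liver libraries and to between 181 and 844 in the 8 lung libraries. The lung-abundant genes summed to between 31971 and 75740 CPM in lung and to between 535 and 857 in liver. The deposited files number the desisobutyryl ciclesonide libraries in a series apart from vehicle, in both tissues, and the names of the 4 liver libraries of the drug carry a further suffix. An effect of library series that was common to both tissues cancels in the contrast, whereas one that touched a single tissue cannot be told apart from the tissue difference. Reads that did not align made up 1.08% ± 0.158 (SD, n = 4) of entries with the drug and 2.64% ± 0.287 with vehicle in lung, and 1.10% ± 0.258 and 2.69% ± 0.522 in liver. The difference between tissues in that gap was 0.0325 percentage points (exact permutation test over pups, two-sided, p = 0.886, adjusted p = 0.886 over 6 read categories, where the smallest possible p is 0.0286). The other 5 categories had adjusted p = 0.857. A single category at the smallest possible p would not pass after adjustment over 6. These values therefore do not show that the tissues were alike.

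The response differed between lung and liver for 944 genes, or 7.36% of those tested (edgeR quasi-likelihood test, Benjamini-Hochberg adjusted p under 0.05 in the 16 libraries). For 483 of them, 3.77%, the change was more upward in lung than in liver, and for 461, 3.59%, it was more downward. At least 2-fold differences made up 274 and 253 of these, and at least 4-fold differences 70 and 75. The median size among called genes was 1.09 on the log2 scale with a median SE of 0.247. In 942 of the 944, or 99.8%, the 4 lung values of the drug (each library less the vehicle mean) did not overlap the 4 liver values, which was also true of 27.5% of all genes tested. Among genes without a call the 95% interval reached a median of 0.456 either side of the estimate. That interval is not adjusted for the number of genes tested, whereas a call is. In the same edgeR test 2896 genes had an unadjusted p under 0.05. A gene without a call may therefore still differ between tissues.

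Called differences came from every level of expression. In the 3207 genes with the lowest levels (0.304 to 5.16 CPM in the tissue where the gene was lower) 7.08% were called, and in the 3207 with the highest (35.9 CPM and above) 6.11%. The sizes that could be called differed: the median among called genes was 1.65 on the log2 scale in the lowest group, with a median SE over all its genes of 0.418, and 0.74 in the highest, with 0.155. Liver libraries had the wider spread. The median SD of log2 CPM among 4 libraries was 0.147 in vehicle lung and 0.157 in lung with the drug, against 0.240 and 0.223 in liver. On the scaled sizes the same CPM stands for fewer reads in liver. For ENSRNOG00000028386, 6.4 CPM was 218 counts in lung vehicle replicate 4, and 6.54 CPM was 71 counts in liver vehicle replicate 1. The gap was narrower between other libraries. In lung drug replicate 4, 18.7 CPM of ENSRNOG00000032085 was 383 counts. In liver drug replicate 4, 20.5 CPM of ENSRNOG00000019584 was 296 counts. The part of the fewer reads in the wider spread was not tested.

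The balance of the 2 directions was not a stable result. TMM scaling, which sets library sizes so that most genes do not move, took lung desisobutyryl ciclesonide replicate 2 as its reference, and 51.2% of called genes were then more upward in lung. With a liver library as reference the share was 63.4% (643 against 371 genes), with DESeq2 it was 62.1%, and with a mean of at least 2 CPM asked in each tissue it was 63.1%. The median tissue difference over all genes moved from -0.01 to 0.06 on the log2 scale between the 2 references. Leaving out any lung library moved the reference to liver desisobutyryl ciclesonide replicate 1, so 2 choices changed at once in those fits. With the reference held in lung, the share ran from 47.7% to 53.8% over the 16 fits that each left out 1 library. No excess of either direction is therefore given for the set as a whole. The count itself was 1550 with DESeq2, which called 942 of the 944, and 571 when the dexamethasone libraries were also in the fit, 552 of them shared. Without lung desisobutyryl ciclesonide replicate 3 it was 707, and 625 with the reference held in lung. The main fit leaves out the replicate number, which was taken to mark pups. With a block by that number the count was 1076, and 825 of those genes were among the 944.

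**Figure D1:**
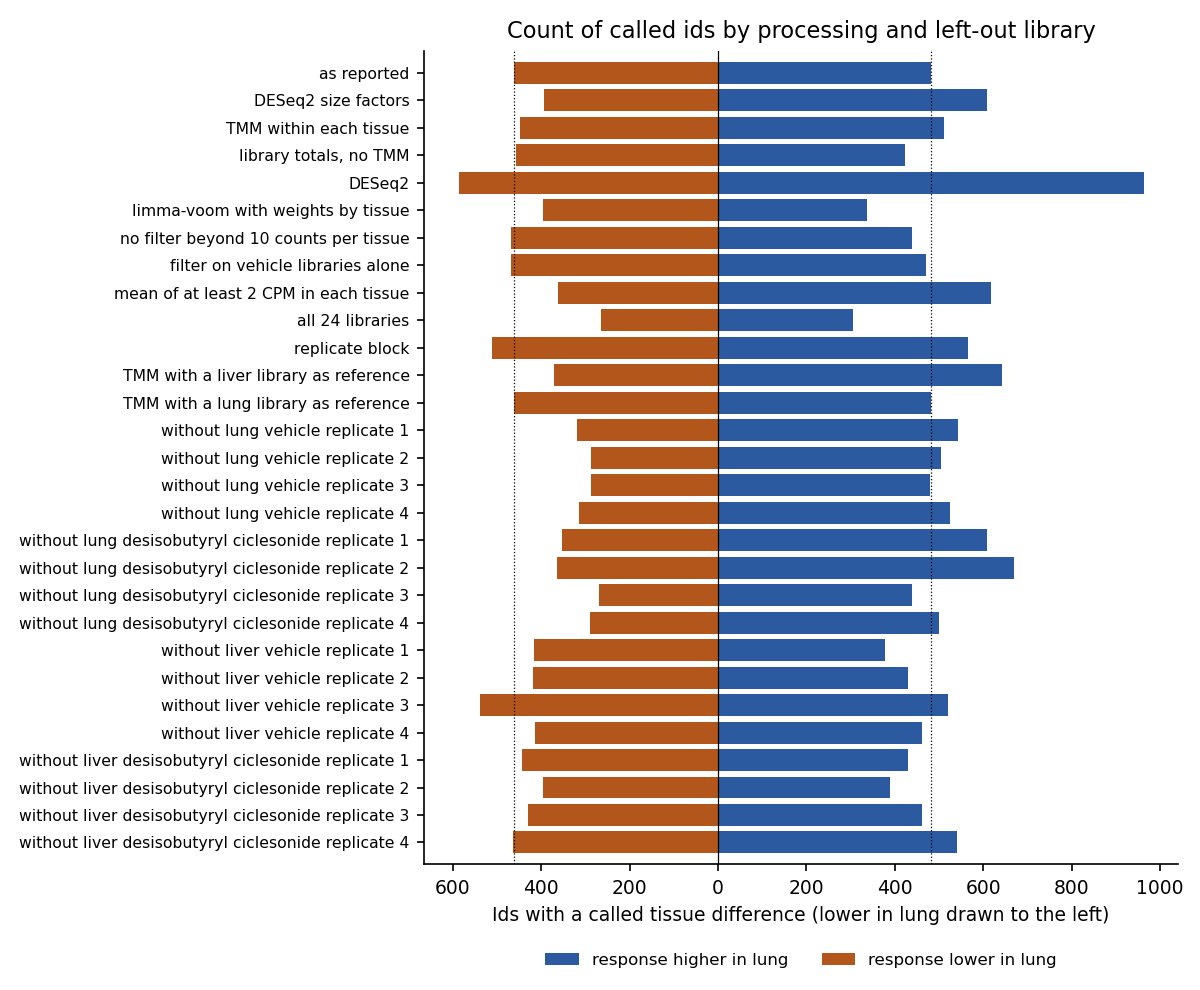
Number of genes with a called tissue difference (horizontal axis) under each processing and with each library left out (vertical axis). Blue bars to the right count genes more upward in lung, orange bars to the left genes more downward in lung, and dotted lines mark the reported 483 and 461. The left bars are shorter when any lung library is left out, which also moved the scaling reference to liver, while leaving out a liver library keeps the 2 directions closer to each other.

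Within each tissue the same fit called 3216 genes in lung, 25.1% of those tested, and 2052 in liver, 16%. A change within 1 tissue, here and for the genes named below, also holds any effect of the library series. Within 1 tissue that effect and the effect of the drug cannot be told apart. The simple changes place the 944 genes by where the movement lay. Of the 483 genes that were more upward in lung, 275 rose in lung without a call in liver (median log2 changes 0.89 and -0.15), 124 fell in liver without a call in lung (medians -0.98 and 0.20), and 47 rose in lung and fell in liver. Of the 461 that were more downward in lung, 268 fell in lung alone (medians -1.09 and 0.19), 126 rose in liver alone (medians 0.67 and -0.11), and 43 fell in lung and rose in liver. A further 42 genes, 26 and 16, passed the test of the difference without a call in either tissue. The remaining 19 changed the same way in both tissues but by unequal amounts, 14 of them more in liver.

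These simple calls lean on a spread pooled over both tissues. Fitted within liver alone, where the spread is wider, 772 genes passed, or 6.02%, and fitted within lung alone 4505 passed, or 35.1%. The division between lung-only, liver-only and opposite genes follows from those thresholds, whereas the test of the difference does not use them. With limma-voom, which lets the weight of a library depend on its tissue, 734 genes differed between tissues, 702 of them among the 944.

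Seen across the libraries, both organs contributed to both sets. Over the 483 genes more upward in lung, the median departure from the vehicle mean was 0.584, 0.575, 0.738 and 0.756 on the log2 scale in lung libraries 1 to 4 of the drug, and -0.365, -0.407, -0.380 and -0.343 in the liver libraries. Over the 461 genes more downward in lung it was -0.548, -0.570, -0.716 and -0.790 in lung and 0.354, 0.404, 0.350 and 0.288 in liver. The single vehicle libraries lay between -0.163 and 0.0972 on the same measure. These values describe genes chosen on the same libraries and are no test. Lung libraries 3 and 4 stood further out than 1 and 2 in both sets. The upward set took 3.72% ± 0.202 (SD, n = 4) of the gene counts in vehicle lung and 5.68% ± 0.388 with the drug, and in liver 5.29% ± 0.338 and 4.55% ± 0.235. The downward set went from 2.96% ± 0.0947 to 1.92% ± 0.147 in lung and from 1.47% ± 0.0602 to 2.02% ± 0.117 in liver.

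**Figure D2:**
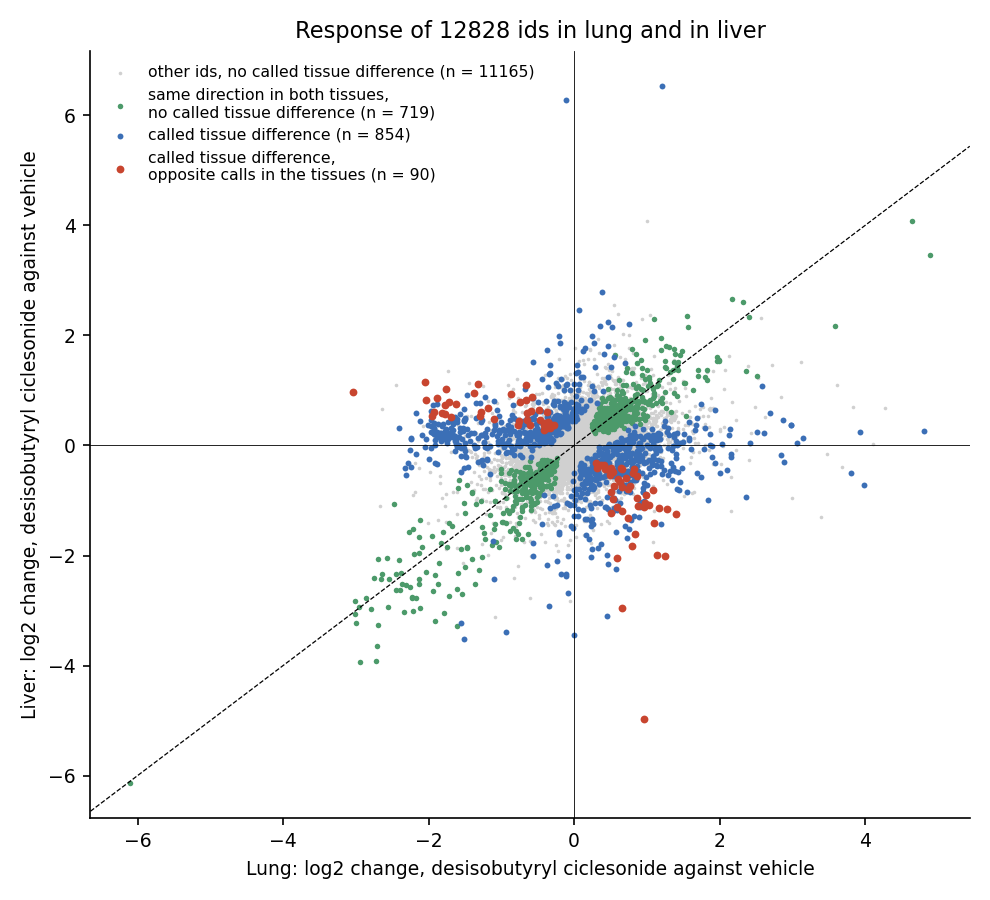
Log2 change from vehicle to desisobutyryl ciclesonide in lung (horizontal axis) and in liver (vertical axis) for each of the 12828 genes tested, with the dashed line marking equal change. Red points are the 90 genes called in opposite directions, blue points the rest of the 944 genes with a called tissue difference, and green points the 719 genes that changed the same way in both tissues with no called difference. A band of blue and red points lies near a lung change of -2 with liver changes near or above 0.

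Most genes that changed in both tissues changed the same way: 738, or 5.75% of genes tested, did so, with 391 higher and 347 lower. For 719 of these no tissue difference was called. Their median change was 0.60 in lung and 0.64 in liver on the log2 scale, regardless of sign, and the median difference between tissues was 0.14, with a 95% interval that reached a median of 0.434 either way. In this group an effect of the drug and an effect of the library series cannot be told apart, because the series is common to both tissues. With the fits within tissue 373 genes changed the same way in both, and with all 24 libraries 489.

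Genes called in one tissue tended to lean the same way in the other. Of the 1624 genes that rose in lung, 1211, or 74.6%, had a liver estimate above 0, against 52.1% of all genes tested. Their median change was 0.65 in lung and 0.23 in liver. Of the 1592 that fell in lung, 27.95% had a liver estimate above 0, and the medians were -0.58 and -0.19. From the liver side, 80.1% of the 1110 genes that rose and 21.8% of the 942 that fell had a lung estimate above 0, against 50.4% of all genes. Across genes, which are not independent replicates and come from the same pups, the changes in the 2 tissues correlated with Pearson r = 0.374 and Spearman rho = 0.359 over 12828 genes. The drug libraries of both tissues also share their series, so these figures describe the lists and were not tested.

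Among large changes, falls in lung gave the highest share of tissue differences under each of 5 scalings, between 44% and 47.7%, without a test between the shares. Of 360 genes that fell at least 2-fold in lung, 171, or 47.5%, had a called tissue difference, 146 had a liver estimate above 0 and 19 rose in liver. Over all 12828 genes tested, 52.1% had a liver estimate above 0 and 1110 rose in liver. The counts of 146 and 19 lie below those shares. The median change of the 360 genes was -1.55 in lung and -0.22 in liver. Of 364 genes that rose at least 2-fold in lung, 123, or 33.8%, differed between tissues, and the medians were 1.35 and 0.33. For liver the shares were 32% of 269 large falls and 26% of 192 large rises. Every one of these shares is above the 7.36% of all genes because genes were chosen by a change that enters the contrast. This grouping was made after the plot of both changes had been seen.

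The 90 genes called in opposite directions, 0.702% of those tested, were above vehicle in one organ and below it in the other with the drug. A series effect could move both changes of a gene, so the sign in each organ cannot be given to the drug alone. All 90 genes with opposite calls also passed the test of the difference in the 16-library fit. Opposite changes add up in that difference, so this is no separate support. In the 47 that rose in lung and fell in liver the median changes were 0.71 and -0.84, and the tissue difference ranged from 0.62 to 5.92. In the 43 that fell in lung and rose in liver the medians were -0.76 and 0.59, with differences from -0.64 to -4.02. The count moved with the fit: it was 38 with fits within tissue, 32 of them among the 90, 37 with all 24 libraries, 59 with limma-voom and 150 with DESeq2. These fits differ in more than the spread they assume. Without lung desisobutyryl ciclesonide replicate 3 it was 55, and 63 with the scaling reference held in lung.

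Under the rule for named genes, ENSRNOG00000032085 had the largest tissue difference. That rule asks a mean of 2 CPM or more only in the higher group of each tissue. In liver this gene passed through vehicle, at a mean of 4.87 CPM, against 0.15 CPM with the drug. In lung it stood at 6.72, 11.0, 9.05 and 7.46 CPM in the vehicle libraries and at 13.5, 15.8, 18.4 and 18.7 CPM with the drug. In liver it stood at 3.13, 4.86, 6.90 and 4.60 CPM with vehicle and at 0, 0.361, 0.0990 and 0.139 CPM with the drug. The groups did not overlap in either tissue, with every lung library of the drug above vehicle and every liver library of the drug below it. It rose in lung by 0.95 (log2, SE 0.243, adjusted p = 0.00931) and fell in liver by 4.97 (SE 0.439, adjusted p = 2.68e-06). The liver value rests on 7 counts over the 4 libraries of the drug, against 216 with vehicle. The tissue difference was 5.92 (SE 0.510, 95% interval 4.85 to 7, adjusted p = 7.25e-06). Both simple changes also passed in fits within tissue (adjusted p = 0.00261 in lung and 0.000171 in liver).

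ENSRNOG00000019584 changed mainly in lung. It went from 44.6, 45.7, 35.3 and 46.7 CPM in vehicle lung to 416, 368, 834 and 1097 CPM with the drug, so that the lowest lung library of the drug was far above the highest of vehicle. In liver it stood at 29.9, 41.3, 37.4 and 21.0 CPM with vehicle and at 9.78, 32.7, 15.8 and 20.5 CPM with the drug, and the groups overlapped. The lung change was 3.98 on the log2 scale (SE 0.394, adjusted p = 8.26e-06), while the liver change of -0.72 did not pass (SE 0.373, 95% interval -1.51 to 0.0777, adjusted p = 0.205). The tissue difference was 4.69 (SE 0.532, adjusted p = 8.69e-05).

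ENSRNOG00000028386 was, by contrast, mainly a liver loss. Its 4 liver libraries of the drug held 0.889, 0.903, 0.495 and 0.972 CPM, all below the vehicle values of 6.54, 6.08, 7.74 and 5.48 CPM. In lung the values were 7.74, 9.96, 5.11 and 6.40 CPM with vehicle and 9.96, 8.02, 14 and 14 CPM with the drug, and these overlapped. The liver change was -2.96 (SE 0.295, adjusted p = 9.15e-06). The lung change of 0.65 (SE 0.224) passed with the pooled spread (adjusted p = 0.0423) but not in the fit within lung (adjusted p = 0.0615). The tissue difference was 3.61 (SE 0.372, adjusted p = 2.13e-05).

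In the other direction, ENSRNOG00000024428 was at 47.0, 41.5, 49.7 and 45.5 CPM in vehicle lung and at 11.4, 11.1, 11.6 and 10.7 CPM with the drug, a close set of values well under vehicle. In liver it was at 30.9, 33.4, 32.6 and 14.6 CPM with vehicle and at 55.6, 48.6, 46.8 and 45.5 CPM with the drug, again with no overlap, although vehicle replicate 4 lay apart from the other vehicle libraries. The lung change was -2.03 (SE 0.182, adjusted p = 3.19e-06). The liver change of 0.82 (SE 0.179) passed with the pooled spread (adjusted p = 0.00644) and narrowly missed in the fit within liver (adjusted p = 0.0527). The tissue difference was -2.85 (SE 0.254, adjusted p = 9.28e-06).

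ENSRNOG00000006198 had the largest downward difference under the same rule. Lung values were 7.61, 7.33, 10.6 and 7.87 CPM with vehicle and 2.79, 2.31, 1.71 and 1.12 CPM with the drug, without overlap. Liver values were 4.23, 4.08, 2.14 and 1.77 CPM with vehicle and 7.73, 6.77, 9.5 and 3.40 CPM with the drug, and drug replicate 4 fell among the vehicle values. The lung change was -2.05 (SE 0.334, adjusted p = 0.000406), and the liver change of 1.15 (SE 0.347) had adjusted p = 0.0332 with the pooled spread and 0.0818 within liver. The tissue difference was -3.20 (SE 0.481, adjusted p = 0.000552).

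**Figure D3:**
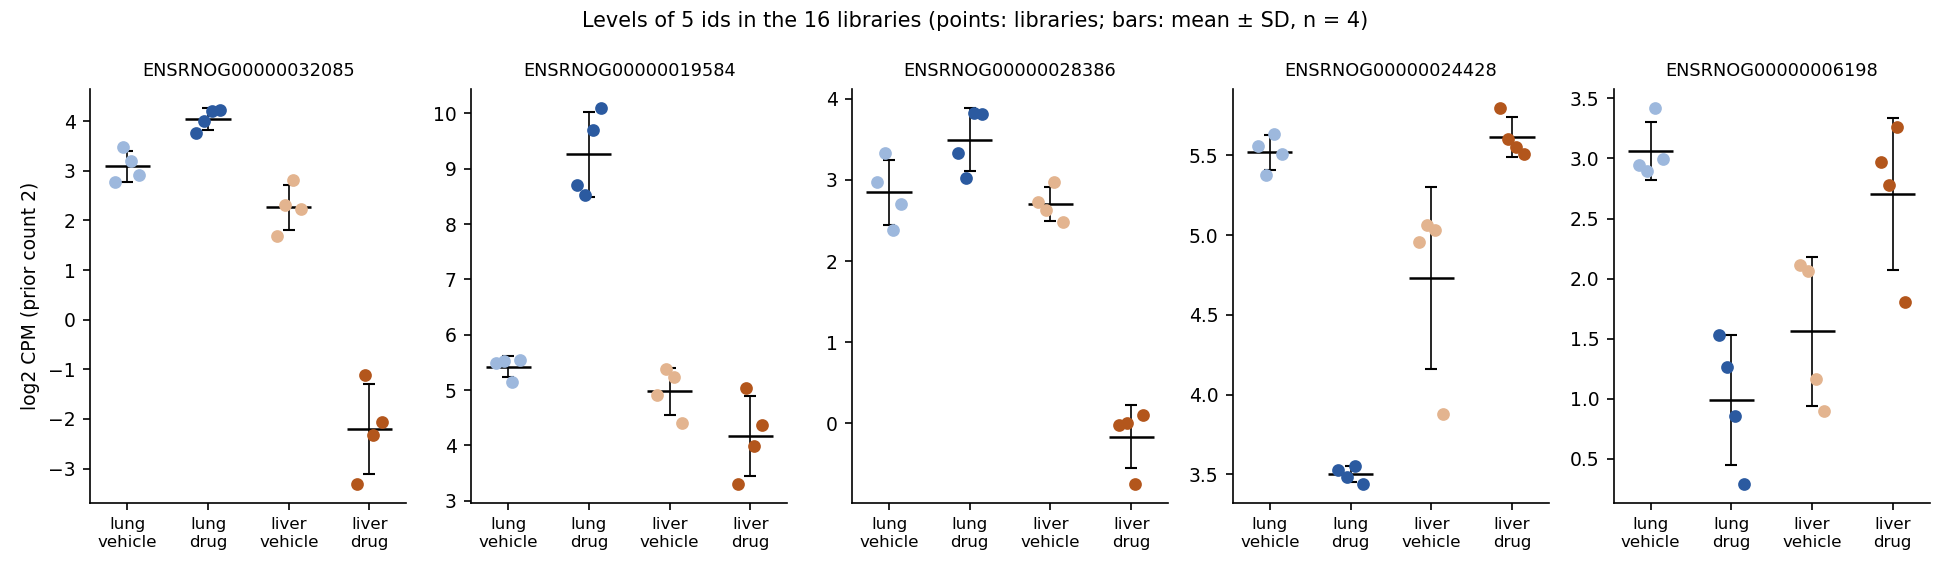
Log2 CPM of the 5 genes named in the text in each of the 16 libraries, by tissue and treatment, each gene on its own vertical scale. Points are libraries and bars are mean ± SD over 4 libraries. ENSRNOG00000032085 and ENSRNOG00000028386 drop in liver with the drug, ENSRNOG00000019584 rises in lung, and ENSRNOG00000024428 and ENSRNOG00000006198 drop in lung while their liver means with the drug lie above vehicle.

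Beside dexamethasone, which shares the vehicle libraries and was given at a different dose, the same 5 genes did not all keep their pattern. Dexamethasone raised ENSRNOG00000032085 in lung by 1.09 and in liver by 1.67 on the log2 scale (edgeR adjusted p = 0.00611 and 0.000323) and ENSRNOG00000028386 by 1.76 and 1.39 (adjusted p = 1.24e-06 and 4.62e-05), so neither fell in liver as it did with desisobutyryl ciclesonide. For both, the tissue difference was larger with desisobutyryl ciclesonide than with dexamethasone in the direct test, by 6.50 (SE 0.651, adjusted p = 3.42e-07) and 3.23 (SE 0.377, adjusted p = 2.01e-06). ENSRNOG00000019584 behaved alike in sign under the 2 drugs, with dexamethasone changes of 5.21 in lung and -1.24 in liver, and its tissue difference was smaller with desisobutyryl ciclesonide by 1.76 (SE 0.507, adjusted p = 0.0117). Dexamethasone lowered ENSRNOG00000024428 and ENSRNOG00000006198 in both organs, by log2 changes of -4.24 and -4.17 in lung and -3.16 and -2.15 in liver. For these the direct test between the drugs gave -1.77 (SE 0.407, adjusted p = 0.00231) and -1.19 (SE 0.695, adjusted p = 0.207). Over all 13245 genes tested in 24 libraries, the tissue difference itself differed between the drugs for 3961, or 29.9%, with 1996 higher and 1965 lower with desisobutyryl ciclesonide. That contrast uses no vehicle mean, and the doses of the drugs are not matched. In the same 24-library fit a tissue difference against vehicle was called for 4601 genes, or 34.7%, with dexamethasone. With desisobutyryl ciclesonide it was called for 571 of the same 13245 genes.

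Genes more abundant in lung had more upward than downward calls. To group genes, levels were first taken from dexamethasone libraries, which do not enter the contrast. This grouping is not independent of it, because dexamethasone is a glucocorticoid too and its own changes help to place a gene. ENSRNOG00000019584, for one, had mean levels of 43.1 CPM in vehicle lung and 32.4 CPM in vehicle liver, and dexamethasone moved it by 5.21 and -1.24 on the log2 scale. Of 1409 genes at least 4-fold higher in lung than in liver, 146, or 10.4%, were more upward in lung and 13, or 0.923%, more downward, against 3.77% and 3.59% of all genes. Their median tissue difference was 0.22, against -0.01 for all genes, made up of median changes of 0.15 in lung and -0.08 in liver. With levels from vehicle libraries, which do enter the contrast, the counts were 83 and 22 of 1126 genes, and the median was 0.08. In the 884 genes of this group by both sets of levels the counts were 82 and 8, with a median of 0.17. By method, the upward counts of 146 and 83 were 73 and 40 with limma-voom and 245 and 138 with DESeq2. Upward calls outnumbered downward calls in both versions of this group under each scaling and filter tried and with each library left out. The groups by level were set once, with the reported TMM scaling, and were not redone in these fits. With the scaling reference held in lung and 1 library left out, the downward count of 13 ran from 9 to 20, highest without liver desisobutyryl ciclesonide replicate 3, and that of 22 from 14 to 26, lowest without lung desisobutyryl ciclesonide replicate 3. The upward count of 146 was 93 without lung desisobutyryl ciclesonide replicate 3 in these fits. With the reference free to move to liver, the downward count of 13 was 6 without lung vehicle replicate 2 or lung desisobutyryl ciclesonide replicate 3, and that of 22 was 10 without the latter. Beside this group, the 20 lung-abundant genes summed to between 31971 and 36211 CPM in vehicle lung and to between 53574 and 75740 CPM in lung with the drug, without overlap. In liver the same sum was 535 to 708 CPM with vehicle and 569 to 857 CPM with the drug, with overlap. These 20 genes were chosen by their levels in dexamethasone libraries, so a rise in lung with a glucocorticoid helps to place a gene among them. The part of these 20 genes in the counts above was not tested.

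For genes higher in liver the direction depended on the levels and on the processing. Of 1217 genes at least 4-fold higher in liver by dexamethasone libraries, 69 were more upward and 64 more downward in lung, with a median tissue difference of -0.04. By vehicle libraries the counts were 114 and 32 of 984, with a median of 0.25, and in the 711 genes of the group by both sets of levels they were 66 and 30. The counts of 69 and 64 also moved with the processing: they were 81 and 41 with the 2 CPM filter, 83 and 51 with a liver reference, 116 and 82 with DESeq2, and 49 and 70 without liver desisobutyryl ciclesonide replicate 1. With the reference held in lung, the 64 was 42 without lung vehicle replicate 3 and 41 without lung desisobutyryl ciclesonide replicate 3, and the 32 was 21 without either. The 114 was 72 without lung desisobutyryl ciclesonide replicate 3. Beside this group stands a measured change in lung: the 20 liver-abundant genes summed to 195, 181, 202 and 249 CPM in the vehicle lung libraries and to 322, 844, 350 and 345 CPM with the drug. The groups did not overlap, and replicate 2 of the drug stood apart. Between 0 and 6 of the 20 genes had no count in a vehicle lung library, and between 0 and 4 in a lung library of the drug. The part of this signal in the tissue difference was not tested, and in whole tissue a change in the number of cells of a type cannot be told apart from a change of RNA in each cell. Genes within 4-fold of each other in the 2 tissues, 10202 by dexamethasone libraries, had 268 upward and 384 downward calls, and no direction is given for them because the balance over the whole set moved with the scaling.

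**Figure D4:**
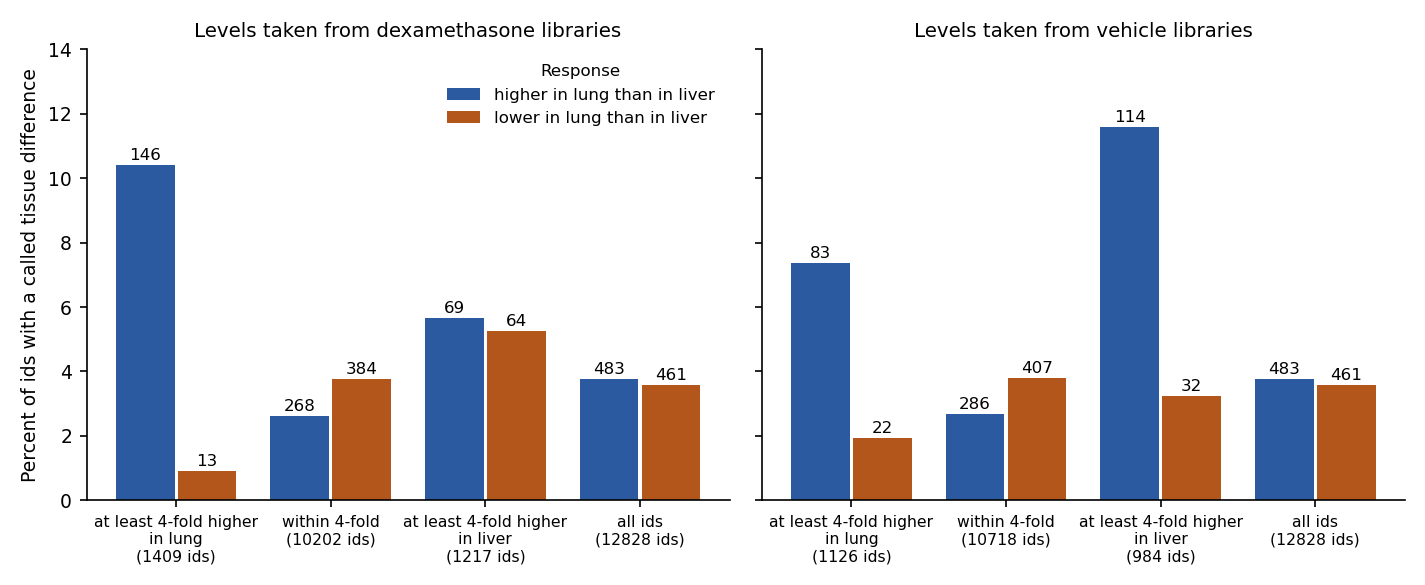
Percent of genes with a called tissue difference (vertical axis) by where the gene was the more abundant (horizontal axis), with levels from dexamethasone libraries on the left and from vehicle libraries on the right. Blue bars are genes more upward in lung, orange bars genes more downward in lung, and the numbers on the bars are genes. In the group at least 4-fold higher in lung the blue bar is the taller in both panels, at 10.4% and 7.37%, while the group higher in liver differs between panels.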

How the data were processed

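Poly(A)-selected, directional dUTP libraries were made from Trizol-extracted RNA of whole lung and liver, per the labels' protocols. The authors deposited whole-number counts per Ensembl gene identifier, not normalized. Tools listed are HTSeq, HISAT2 and cutadapt, with build mRatBN7.2, per the submitters' processing notes; versions and strand setting are not given in the sources used here, so genes that overlap, lie antisense or have a near-identical copy are uncertain. The 5 closing rows of unassigned reads, 16.8% to 27.7% of entries, were left out. None of the identifiers matched the table of 47357 rat genes, so 31 planned gene lists, marker checks and promoter sequences could not be used.

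Genes passing edgeR's default filter in each tissue were scaled by TMM and fitted with 1 mean per tissue and treatment (edgeR 4.0.16, R 4.3.3, quasi-likelihood test with robust dispersion). CPM use TMM-scaled sizes, except the sums of tissue-abundant genes, which use library totals. A tissue-abundant gene was one of the 20 highest in a tissue and at least 64-fold above the other. Baseline ratios added 0.5 CPM. Named genes were the 2 largest each way by log2 tissue difference with adjusted p under 0.05, a mean of 2 CPM or more in each tissue's higher group and no overlap between tissues, and the 2 largest each way among opposite calls; the condition on gene symbols was dropped. The members and lists were chosen with earlier results of these data known. Replicate pairs all differed beyond sampling noise (lowest ratio of chi-square to degrees of freedom 12.4 over 24 pairs). Same-numbered lung and liver libraries deviated together in all 8 pairs (r from 0.129 to 0.344, each best with its own number), so numbers were taken to mark pups, which the labels do not say. Alternatives were DESeq2 1.42.0, limma 3.58.1 (voom), other scalings and filters, 24 libraries, a replicate block and leaving out each library. The scripts were tested on simulated data.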

Additional observations from a re-analysis of the deposited data

Results flagged for a closer look

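The 5 named genes differed between tissues in the test of the difference itself: ENSRNOG00000032085 by 5.92, ENSRNOG00000019584 by 4.69, ENSRNOG00000028386 by 3.61, ENSRNOG00000024428 by -2.85 and ENSRNOG00000006198 by -3.20 on the log2 scale. They were named because they passed that test with large values, so this is no separate support. Of 60 groups of 4 values checked, 6 held a value far from the other 3, where chance gives about 1 in 20. ENSRNOG00000006198 stood at 10.6 CPM in lung vehicle replicate 3. ENSRNOG00000024428 stood at 14.6 CPM in liver vehicle replicate 4. Ambiguous reads made up 3.00% in liver vehicle replicate 2. The liver-abundant genes summed to 844 CPM in lung desisobutyryl ciclesonide replicate 2. The lung-abundant genes summed to 535 CPM in liver vehicle replicate 4 and to 31971 CPM in lung vehicle replicate 3.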

How the results depend on the processing

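The tissue difference was called for 571 genes with all 24 libraries and 1550 with DESeq2, for 1076 with the replicate block (825 shared with the fit without it), for 707 to 1058 with 1 library left out, and for 625 to 1058 with the TMM reference also held in lung. Opposite calls numbered 150 with DESeq2, 59 with limma-voom, 37 with all 24 libraries, 38 with fits within tissue, 55 to 87 with 1 library left out, and 63 to 87 with the reference held in lung. In liver 1134 genes passed with limma-voom and 772 in the fit within liver. The remaining alternatives kept these counts within 1.5 times. The difference between the drugs was called for 4475 genes with the replicate block against 3961, and the tissue differences of the 5 named genes stayed past the threshold with it. A block by pup gives no value for a change within 1 tissue. The tissue differences of the 5 named genes also kept their direction and call under the other scalings, filters, tools and left-out libraries, whereas 3 of their single-tissue changes were lost in fits within tissue. These fits reuse the libraries by which the genes were chosen. Bin counts by level moved as given above. The fits within tissue, the choice and holding of the TMM reference and the shares of large changes by scaling were added after seeing the data. Without 1 pup the read category differences, none of which passed, ranged from -0.960 to 0.0591 (assigned), -8.34e-05 to 0.594 (no feature), -0.103 to 0.00996 (ambiguous), -0.553 to 0.0136 (low quality) and -0.163 to 0.183 percentage points (not aligned). Liver libraries had the wider spread, and its part in the calls of the contrast was not tested.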
